A study of Mus musculus with 8 samples.

Results

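This account covers the comparison of NIK knockout (NIK KO) with wild type (WT) macrophages at rest, in PBS without cytokine. Its members are all 13676 genes of the authors' deposited table for that contrast, out of 14485 genes listed in either of the study's tables, the other being the same contrast with IL-4 (14193 genes). Most values concern the 9266 genes of base mean 100 or more, called well measured here, where the base mean is the normalized count of a gene averaged over the libraries of a table. These genes hold 99.2% of the summed base means, and that sum is 1.42e+07. The animals were female mice aged 12 weeks, 2 WT and 2 NIK KO, and each gave 1 library with PBS and 1 with 20 ng/mL IL-4 (8 libraries, of which 4 belong to the PBS contrast). Marrow from the long bones of the hind leg was grown for 7 days with 30% medium conditioned by L929 fibroblasts, which secrete the macrophage growth factor M-CSF. All groups were then replated with 5% of that medium and held for 6 hours with PBS or IL-4. The sources used here do not give the allele, the part of the gene removed or the genetic background of the mice, so whether the loss is confined to macrophages is not known. Each library was made from a whole dish of cells, in which fewer cells of a type and less RNA per cell cannot be told apart.

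NIK (Map3k14) is the kinase at the head of noncanonical NF-κB signalling. In resting cells a complex of TRAF3, TRAF2 and the cIAP ligases marks newly made NIK for degradation, and receptors such as the lymphotoxin beta receptor, CD40 and RANK release it by removing TRAF3. NIK then acts through IKKα (Chuk) on the NF-κB2 precursor, whose processed form enters the nucleus with RelB. Bone marrow macrophages are known for phagocytosis, antigen presentation and a ready response to interferon and microbial products.

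The cells carried the RNA of macrophages in both genotypes. All 20 genes of the macrophage identity list were well measured, and Lyz2, which encodes lysozyme, had the highest base mean of the authors' deposited table (517390, not divided by transcript length). Of the markers of other cells, 0 of 17 fibroblast and stromal genes were well measured, with a highest base mean of 69.2, and the same count of 0 held for the erythroid, B cell, T and NK cell, mast cell and eosinophil lists. Mean counts summed over the fibroblast list were 337 in WT and 320 in libraries labelled NIK KO, which are levels and not a test. Neutrophil markers had 3 well measured genes of 16 and dendritic cell markers 2 of 14. Progenitor markers had 2 of 11, megakaryocyte and platelet markers 2 of 10, and endothelial markers 2 of 10. The highest base means in those last 3 lists were 1927, 806 and 827, in that order.

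The gene of the targeted kinase stood higher in the libraries labelled NIK KO. In the authors' deposited table Map3k14 (ENSMUSG00000020941, chromosome 11) was at 1.09 ± 0.28 on the log2 scale, NIK KO over WT (± is the standard error that DESeq2 gives). The mean normalized counts recovered from that fold change and the base mean were 425 in WT and 902 in libraries labelled NIK KO. The authors' deposited table gives it an unadjusted DESeq2 p = 0.000108 and a Benjamini-Hochberg adjusted p = 0.176, so it was not called. With IL-4 it stood on the same side, at 0.99 ± 0.22 per the authors' deposited table (DESeq2 adjusted p = 0.00782), and there it passed. The part of the gene removed is not given, so 1 value for the whole gene cannot tell whether the label holds. The text therefore writes of libraries labelled NIK KO. The direction is the one that the IL-4 table carries in its name, and the name of the PBS table gives none. Gm10184, a gene with most of its sequence in other genes, had means of 0.172 and 2525 with PBS and of 7.50 and 2599 with IL-4, WT first, so its low side was the same in both tables. If the order in the name were the reverse, every sign and every pair of means in both tables would turn, that of Map3k14 included. None of the 5 nearest genes listed on either side of Map3k14 was called. In the authors' deposited table the nearest to a change among them was Arf2, a small GTPase of vesicle traffic, at -0.49 ± 0.26 (DESeq2 p = 0.0573), while Acbd4 was at 0.54 ± 0.37 and Arhgap27 at 0.38 ± 0.25. The neighbours lay on both sides of 0. Genes farther from Map3k14 on chromosome 11, called or not, were not examined by position.

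Differences across the genome were small and even in direction. Of the well measured genes, 4638 (50.1%) stood higher in the libraries labelled NIK KO than in WT, and 4628 (49.9%) stood lower. Their median log2 fold change was 0.00, with quartiles at -0.13 and 0.13, and 98% of them lay within 1.5-fold. At 1.5-fold or more there were 67 higher (0.723%) and 116 lower (1.25%), but 33 and 29 among genes of base mean 300 or more. At 2-fold or more there were 13 and 13. The authors' DESeq2 test called 5 of 13676 genes (0.0366%), all 5 of them well measured (0.054% of 9266). Unadjusted, 46 higher genes (0.496%) and 40 lower genes (0.432%) had a DESeq2 p under 0.05, together 0.928% where 5% would fall there with no difference at all. The Wald statistic of these well measured genes had a standard deviation of 0.72, less than errors of the right size would give even with no difference. The deposited errors were thus wide for a typical gene and the p-values conservative, so few calls do not show that differences are absent. The standard error of a well measured gene had a median of 0.30 and a lowest value of 0.23, so a change of 1.5-fold (0.58 on the log2 scale) was near 2 standard errors for a typical gene. Level and direction were linked: with genes ranked by base mean into 5 equal bins, the median log2 fold change ran from -0.06 in the lowest bin, where 40.6% of genes were higher, to 0.05 in the highest, where 62.2% were higher. Those shares stand as the background for the counts of each group of genes below. Members of a group were measured in the same libraries and are not replicates, so such counts are descriptions and not tests.

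**Figure D1:**
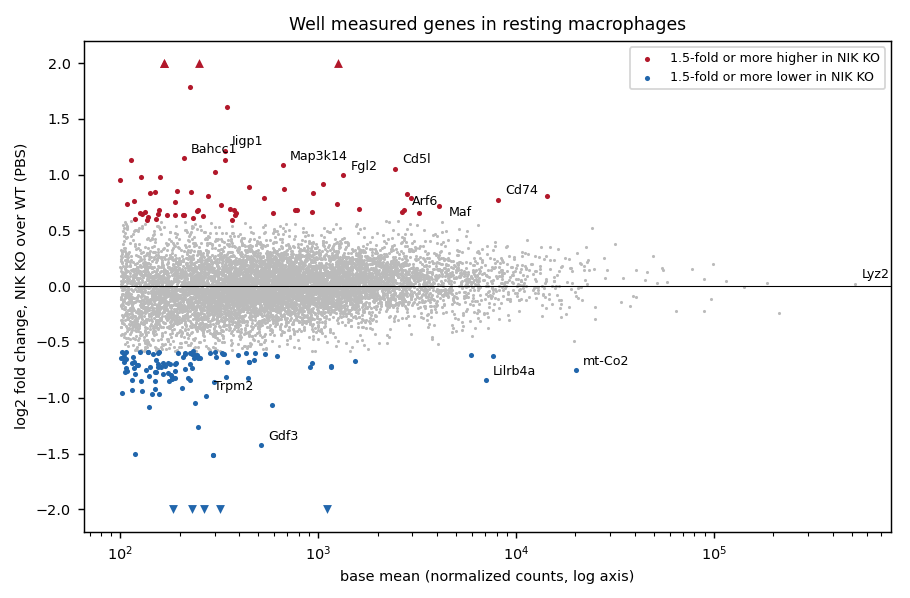
Log2 fold change (NIK KO over WT with PBS, vertical axis) against base mean (horizontal log axis) for the 9266 well measured genes, 1 point each. Red points are the 67 genes 1.5-fold or more higher and blue points the 116 lower, triangles mark 9 genes beyond 2 on the log2 scale, and most points lie within the grey band around 0 at every level.

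Single genes at the higher end included those of macrophage surface and secreted proteins and of the interferon response. Cd5l, a secreted scavenger receptor protein of tissue macrophages, stood at a mean of 1597 in WT and 3315 in libraries labelled NIK KO, for which the authors' deposited table gives 1.05 ± 0.29 (DESeq2 p = 0.000249, adjusted p = 0.309). Fgl2, a prothrombinase and immune regulator of the fibrinogen family, stood at 896 and 1786, and per the authors' deposited table at 1.00 ± 0.34. Neither gene passed adjustment over all genes. Bahcc1, a chromatin protein, was at 1.15 ± 0.35 per the authors' deposited table (130 and 289). Arf6, a small GTPase of endocytosis and membrane ruffling, was at 0.68 ± 0.24 from means of 2095 and 3360.2, also per the authors' deposited table. Coq8a, needed for making coenzyme Q, stood at 1.13 ± 0.45 per the authors' deposited table, from 70.8 to 155. Gm42715 came nearest to a call, at 1.61 ± 0.38 per the authors' deposited table (170.3 and 520; DESeq2 adjusted p = 0.0538), and 85.9% of the 31-base words of its transcript also occur in other genes.

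At the lower end, 1 gene with a sequence of its own passed. Gdf3, a secreted ligand of the TGF-β family, fell from a mean of 749 in WT to 279 in the libraries labelled NIK KO (DESeq2 adjusted p = 0.0224, with -1.43 ± 0.32 as the log2 fold change of the authors' deposited table). Without the genes that share over 50% of their words with another gene, 0 of 12524 passed on the DESeq2 p-values and the lowest adjusted p, that of Gdf3, was 0.103. The unadjusted p of Gdf3 is the same in both. Its adjusted p rose because the other called genes, with smaller p-values, were left out of the ranking. Trpm2, a calcium channel opened by oxidative stress, stood at 362 and 183, and at -0.98 ± 0.32 per the authors' deposited table (DESeq2 p = 0.002, adjusted p = 1). Mrm1, which methylates mitochondrial ribosomal RNA, was at -1.26 ± 0.42 and Hook3, a motor adaptor, at -0.73 ± 0.28 per the authors' deposited table, without passing adjustment. Ext1, a heparan sulfate polymerase, was at -0.82 ± 0.34 per the authors' deposited table, and Phf19, a Polycomb accessory protein, at -0.84 ± 0.35. These 6 genes of the lower end, from a secreted ligand to a chromatin factor, all had base means under 1000.

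**Figure D2:**
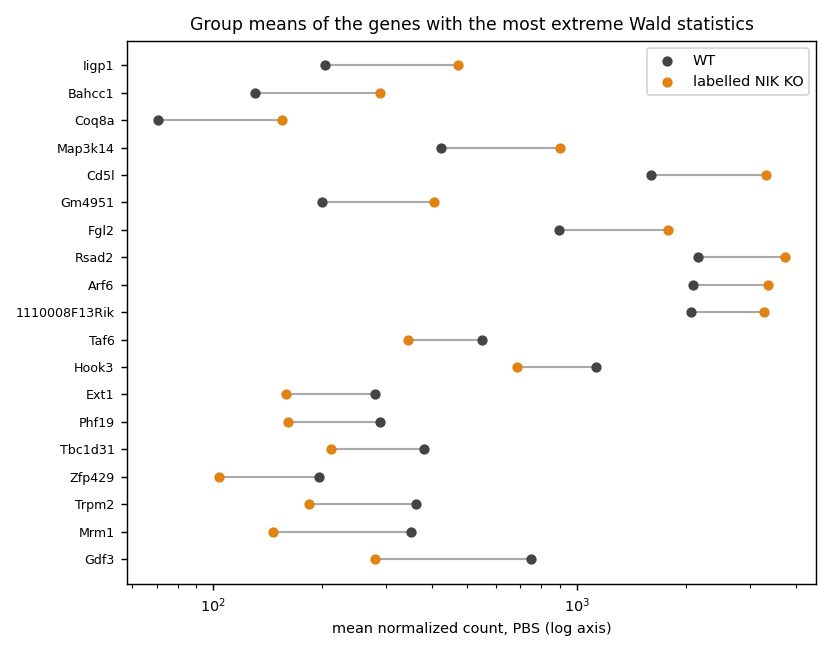
Mean normalized counts (horizontal log axis) of WT and of the libraries labelled NIK KO with PBS for 19 genes, 10 higher and 9 lower, taken from the 15 highest and 15 lowest Wald statistics among well measured genes and leaving out those that share over 50% of their words. Each line joins the 2 group means of a gene, no error is drawn because the deposited error belongs to the fold change, and Gdf3 shows the widest gap at the lower end (749 against 279).

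Of the 30 genes with the most extreme Wald statistics, 11 share over 50% of their words with another gene, as do 3.93% of all well measured genes. Reads of such genes could have been split between copies, and Kpna2, Gm10184, Pgam1-ps2 and Rpl10a-ps1, the other 4 called genes, are among them. Kpna2, an importin, fell (DESeq2 adjusted p = 3.48e-56, log2 fold change -4.58 ± 0.28 per the authors' deposited table; 94.2% of words shared). Gm10184 rose by 13.84 ± 1.47 on the log2 scale per the authors' deposited table, from a mean of 0.172 to 2525 (DESeq2 adjusted p = 2.61e-17; 99.0% of words shared). Kpna2 and Gm10184 thus moved in opposite directions. Whether reads were assigned to one in place of the other was not tested, so a loss of Kpna2 RNA cannot be read from its value alone. Rpl10a-ps1, a pseudogene of a ribosomal protein gene, rose from a mean listed near 0 in WT to 498 (DESeq2 adjusted p = 0.00152), and Pgam1-ps2, a pseudogene of a glycolytic enzyme, fell from 530.2 to near 0 (DESeq2 adjusted p = 0.00108). The list that holds Kpna2 has importins, exportins and the GTPase gene Ran. Its other 20 genes ranged from -0.27 for Ipo4 to 0.50 for Ran per the authors' deposited table, and 0 of them were called. Hist2h2aa1, a histone H2A gene, was at -1.50 ± 0.62 per the authors' deposited table, while its twin Hist2h2aa2 was at 0.45 ± 0.35. Dynlt1c, a dynein light chain, was at -1.04 ± 0.34, while Dynlt1a and Dynlt1f stood at -0.14 ± 0.31 and -0.04 ± 0.28 per the authors' deposited table. Lilrb4a, an inhibitory receptor of myeloid cells, was at -0.84 ± 0.33 with means of 9050 and 5041, whereas Lilr4b was at -0.11 ± 0.26, both per the authors' deposited table. Whether the copies of a family differ was not tested, and the value of a single copy is uncertain.

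Interferon-inducible GTPases, which attack the membranes around intracellular microbes, stood higher as a family without any member being called. All 18 listed genes were in the table, 15 were well measured, and 15 of 15 were higher, against 50.1% of all well measured genes. In the bin that holds their median base mean of 993.7, 53.7% of all genes were higher. Their median was 0.39 against 0.00 over all well measured genes, their range was 0.16 to 1.21, and 4 had an unadjusted DESeq2 p under 0.05 with 0 called. In the authors' deposited table Iigp1 was at 1.21 ± 0.42 (means of 203 and 471) and Gm4951 at 1.02 ± 0.35 (199.8 and 406). Tgtp2 stood at 717 and 1137 and Irgm2 at 1271 and 1842, which are 0.66 ± 0.31 and 0.54 ± 0.25 per the authors' deposited table, and 94.7% of the words of Tgtp2 are shared. The guanylate binding proteins Gbp2 and Gbp6 were at 0.56 ± 0.34 and 0.56 ± 0.38 per the authors' deposited table, with unadjusted DESeq2 p of 0.101 and 0.143. Gbp7 and Gvin1 had the lowest values, 0.16 ± 0.31 and 0.17 ± 0.25 per the authors' deposited table, so members differed in size more than in direction.

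Upstream sequence of 4 interferon-response genes with an unadjusted DESeq2 p under 0.05 is shown because the family shares a motif there; the 4 were picked from those that hold it. Each line gives the 250 bases before the RefSeq start site (GRCm38.p6, not the build of the authors), 5′ to 3′ along the gene. Capitals mark the core of the interferon-stimulated response element, GAAANNGAAA, or the gamma-activated sequence TTCNNNGAA, each searched on both strands. The windows are Irgm2 at chr11:58214727-58214976 (plus strand), Tgtp2 at chr11:49064213-49064462 (minus), Rsad2 at chr12:26456453-26456702 (minus) and Ifit3b at chr19:34607707-34607956 (plus).
Irgm2: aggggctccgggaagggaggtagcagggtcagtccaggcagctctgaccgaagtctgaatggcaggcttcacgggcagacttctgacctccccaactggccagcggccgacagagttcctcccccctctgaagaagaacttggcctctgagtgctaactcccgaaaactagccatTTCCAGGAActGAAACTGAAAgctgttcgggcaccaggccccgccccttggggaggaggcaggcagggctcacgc
Tgtp2: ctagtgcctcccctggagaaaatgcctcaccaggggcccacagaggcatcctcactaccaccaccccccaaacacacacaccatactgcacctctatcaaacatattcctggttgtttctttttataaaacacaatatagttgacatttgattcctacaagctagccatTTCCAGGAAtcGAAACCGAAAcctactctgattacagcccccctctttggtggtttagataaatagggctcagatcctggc
Rsad2: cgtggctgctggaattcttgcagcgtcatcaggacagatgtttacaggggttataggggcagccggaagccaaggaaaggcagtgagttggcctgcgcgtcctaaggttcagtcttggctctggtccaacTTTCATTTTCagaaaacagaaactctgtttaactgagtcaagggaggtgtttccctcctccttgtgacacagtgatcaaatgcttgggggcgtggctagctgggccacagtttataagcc
Ifit3b: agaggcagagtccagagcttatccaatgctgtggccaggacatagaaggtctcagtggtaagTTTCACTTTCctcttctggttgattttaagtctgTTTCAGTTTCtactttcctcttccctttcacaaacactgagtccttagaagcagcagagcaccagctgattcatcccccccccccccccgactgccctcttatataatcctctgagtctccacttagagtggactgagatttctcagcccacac

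In Irgm2 and Tgtp2 both motifs stood side by side without overlap, the element core 64 and 70 bases and the gamma-activated sequence 75 and 81 bases before the start. Rsad2 held 1 element core, 120 bases before the start on the reverse strand, and Ifit3b held 2 on that strand, at 188 and 154 bases. The core was found in 8 of 9 GTPase genes with a promoter entry (88.9%), in 16 of 37 interferon-stimulated genes (43.2%), and in 936 of 27025 genes of the whole promoter table (3.46%). The gamma-activated sequence was found in 5 of 9, 6 of 37 and 8.13% of all. Cmpk2, of the same response, held no core in its window, and a match is a description of letters and not a bound site.

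Interferon-stimulated genes beyond the GTPases stood higher by less. Of 50 listed, 49 were well measured, 46 were higher and 3 lower, with a median of 0.26, and 4 had an unadjusted DESeq2 p under 0.05 with 0 called. Beside this, 62.2% of all genes were higher in the highest bin of base mean, which holds the list's median base mean of 2625. In the authors' deposited table Ifit3b, which binds foreign RNA, was at 0.83 ± 0.30 (means of 681 and 1213; 55.5% of words shared) and Rsad2, an antiviral enzyme that makes a chain-terminating nucleotide, at 0.79 ± 0.29 (2157 and 3741). Cmpk2, a mitochondrial nucleotide kinase, stood at 2512 and 3957, and Ms4a4c, a tetraspan membrane protein, at 1229 and 1980.1, with 0.66 ± 0.29 and 0.69 ± 0.31 per the authors' deposited table. Trim30a and Ifit3 were at 0.49 ± 0.26 and 0.50 ± 0.27 per the authors' deposited table (unadjusted DESeq2 p of 0.0618 and 0.0635). The 3 lower members lay at -0.10 or nearer to 0, within 1 standard error. Sensors of nucleic acid were mixed: 15 of 20 were higher, with a median of 0.15. Of these Ifi204, a DNA-binding HIN200 protein, was at 0.51 ± 0.25 per the authors' deposited table (4243 and 6055), and Ifi213 at 0.56 ± 0.30. The interferon-stimulated and GTPase medians with IL-4 were 0.21 and 0.30, from the same mice and so not a separate observation.

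MHC class II genes, which load and display peptides from endocytosed protein, had the highest median of the 58 lists with at least 5 well measured members. Of 14 listed genes 13 were in the table and 9 were well measured, with 8 higher, 1 lower and a median of 0.58. In the bin that holds their median base mean of 2211, 62.2% of all genes were higher. The peptide-loading pair H2-DMa and H2-DMb1 followed the classical genes, at 0.47 ± 0.29 and 0.38 ± 0.27 per the authors' deposited table. The invariant chain gene Cd74 had means of 5980.1 and 10227 and H2-Ab1, a class II beta chain, of 3085 and 5073 (0.77 ± 0.31 and 0.72 ± 0.32 per the authors' deposited table). H2-Aa, the alpha chain, was at 0.58 ± 0.35 per the authors' deposited table, from 1771 to 2652. Ciita, the factor that switches these genes on, had means of 243 and 403 (0.73 ± 0.32 per the authors' deposited table). Ctss and Ifi30, a protease and a reductase that prepare antigen, were at 0.16 ± 0.24 and -0.18 ± 0.25 per the authors' deposited table, and their difference from the other members was not tested. Unadjusted, 3 of the 9 had a DESeq2 p under 0.05, and 0 were called.

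The 250 bases before the start of H2-Aa (chr17:34287824-34288073, minus strand, GRCm38.p6, RefSeq) are shown beside those of Ccnb1, the mitotic cyclin B1 (chr13:100786487-100786736, minus strand), because both hold the same promoter box although the medians of their lists lie on opposite sides of 0. Capitals mark CCAAT on either strand, the motif of the factor NF-Y.
H2-Aa: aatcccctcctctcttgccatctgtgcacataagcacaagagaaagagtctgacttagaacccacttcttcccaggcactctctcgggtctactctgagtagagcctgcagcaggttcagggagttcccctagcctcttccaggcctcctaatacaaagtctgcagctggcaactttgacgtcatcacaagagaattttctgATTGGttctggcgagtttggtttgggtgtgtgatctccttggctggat
Ccnb1: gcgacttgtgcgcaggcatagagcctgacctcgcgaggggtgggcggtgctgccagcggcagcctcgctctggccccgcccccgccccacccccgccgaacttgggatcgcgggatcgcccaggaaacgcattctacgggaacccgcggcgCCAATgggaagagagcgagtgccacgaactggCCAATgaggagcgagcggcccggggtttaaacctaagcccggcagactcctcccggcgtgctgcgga

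H2-Aa held 1 box, 48 bases before the start on the reverse strand, and Ccnb1 held 2 on the forward strand, at 99 and 67 bases. The box was present in 4 of 6 class II genes with an entry, 14 of 19 class I genes (73.7%) and 29 of 41 mitosis genes (70.7%), against 37.5% of all 27025 genes. It was present in 2 of 9 GTPase genes (22.2%), 13 of 37 interferon-stimulated genes (35.1%) and 3 of 14 noncanonical NF-κB genes (21.4%). Shares above and below that of all genes thus occurred among lists with medians above 0.

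MHC class I genes stood higher by a smaller margin, 19 of 23 with a median of 0.17, and 0 had an unadjusted DESeq2 p under 0.05. Their median base mean of 3575 lay in the highest bin, where 62.2% of all genes were higher. Tapbp (tapasin), which holds class I at the peptide transporter, was at 0.40 ± 0.23 per the authors' deposited table (6747 and 8895), and the transporter gene Tap1 at 0.35 ± 0.24. H2-K1, a classical heavy chain, stood at 44467 and 53797 (0.27 ± 0.25 per the authors' deposited table). B2m, the light chain shared by all class I molecules, was at -0.10 ± 0.26 per the authors' deposited table (42033 and 39178), so a heavy and the light chain lay on different sides of 0, each by under 2 standard errors.

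**Figure D3:**
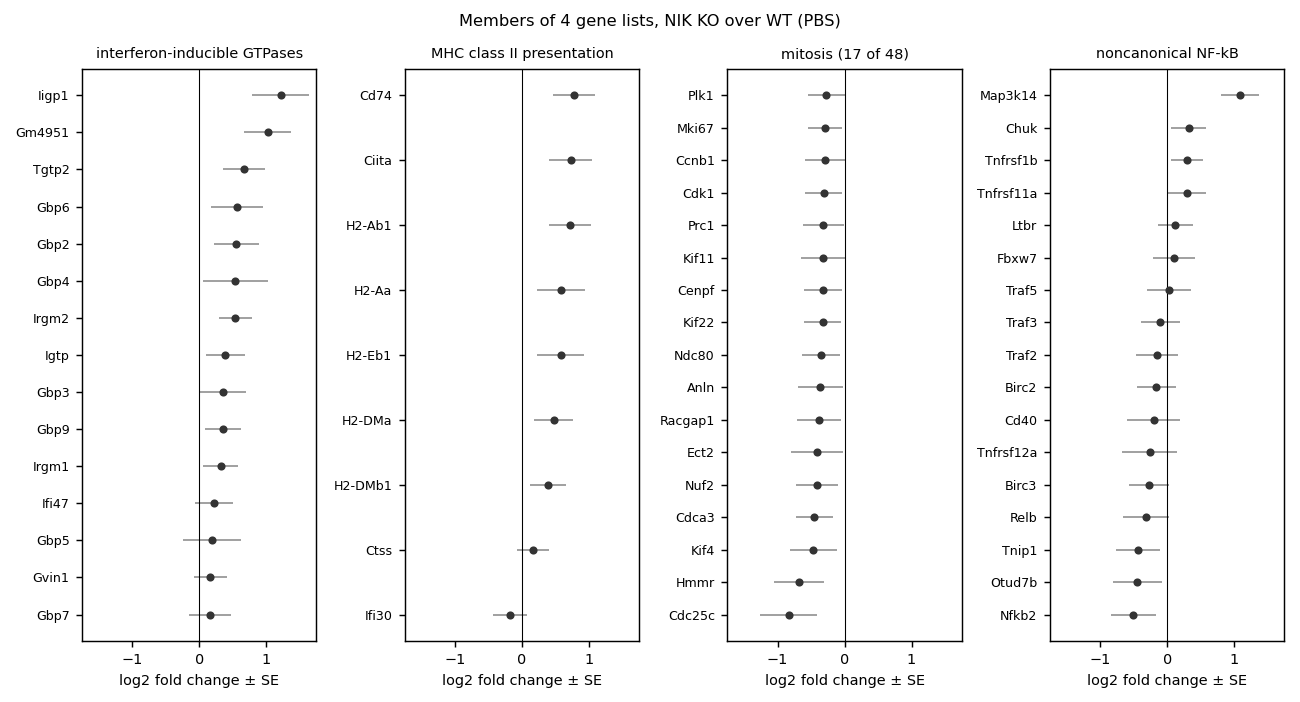
Deposited log2 fold change (NIK KO over WT with PBS, horizontal axis) ± standard error of single genes in 4 lists: 15 interferon-inducible GTPases, 9 MHC class II genes, the 17 of 48 mitosis genes with the most extreme Wald statistics, and 17 noncanonical NF-κB genes. The GTPase points all lie right of 0 (0.16 to 1.21), the 17 mitosis genes shown all lie left of it, and Map3k14 stands apart at 1.09.

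Some macrophage and monocyte genes stood higher in the same libraries. Maf, a transcription factor of mature macrophages, was at 0.58 ± 0.24 per the authors' deposited table (3387 and 5054; unadjusted DESeq2 p = 0.016), and Fcrls, an Fc receptor-like scavenger, at 0.58 ± 0.24 (2028 and 3033). The chemokine receptor gene Ccr2, whose product draws monocytes from marrow to blood, stood at 0.74 ± 0.36 per the authors' deposited table (936 and 1561). F13a1, a coagulation factor subunit made by monocytes, was at 0.85 ± 0.39 per the authors' deposited table (138 and 250.2). Macrophage identity genes as a list were spread around 0, 13 higher and 7 lower with a median of 0.05. Of 13 monocyte markers 6 were well measured, 5 of them higher, with a median of 0.15, and the sum of mean counts over the monocyte list was 16510 in WT and 17770 in libraries labelled NIK KO. Dendritic cell markers summed to 6330 and 7703, nearly all of it Bst2, itself induced by interferon, while Flt3 and Zbtb46 had base means under 10. B cell markers summed to 143 and 163, most of it Ighm, the immunoglobulin heavy chain gene. The part of these cells in the interferon and MHC class II values was not tested.

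Lipid handling, Fc receptors and the endoplasmic reticulum had medians above 0. Of 18 well measured LXR targets and lipid genes 12 were higher (66.7%), with a median of 0.17, and 0 had an unadjusted DESeq2 p under 0.05. In the bin that holds their median base mean of 1351, 53.7% of all genes were higher. The cholesterol exporters Abcg1 and Abca1 were at 0.44 ± 0.25 and 0.34 ± 0.26 per the authors' deposited table, and Mylip, which degrades the LDL receptor, at 0.45 ± 0.28. Fasn, the fatty acid synthase, lay on the other side at -0.33 ± 0.31 per the authors' deposited table. Fc receptors were higher in 6 of 7, with Fcgr4 at 0.50 ± 0.31 per the authors' deposited table and Fcgr2b, the inhibitory receptor, at -0.26 ± 0.33. Chaperones and sensors of the unfolded protein response were higher in 16 of 20 with a median of 0.12, led by Canx and Dnajc3 at 0.34 ± 0.26 and 0.34 ± 0.27 per the authors' deposited table. Those medians lie within 1 standard error of a single gene. The Fc receptor and unfolded protein response lists had median base means of 2531 and 1906, in the highest bin, where 62.2% of all genes were higher.

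Genes of mitosis stood lower almost throughout. All 48 listed were well measured, 43 were lower and 5 higher, against 49.9% lower among all well measured genes, and their median was -0.23. In the authors' deposited table Cdc25c, the phosphatase that starts mitosis, was at -0.84 ± 0.42 (means of 146 and 81.8) and was the 1 member with an unadjusted DESeq2 p under 0.05, and 0 were called. Hmmr, a spindle protein, was at -0.68 ± 0.37 per the authors' deposited table (552 and 345), and Cdca3, a trigger of mitotic entry, at -0.45 ± 0.28. Kif4 and Nuf2, a chromosome motor and a kinetochore protein, were at -0.47 ± 0.35 and -0.41 ± 0.32 per the authors' deposited table. Mean counts summed over the list were 38390 in WT and 33340 in libraries labelled NIK KO. DNA replication genes, by contrast, were split, 18 higher and 21 lower with a median of -0.01, with Tk1 (thymidine kinase) at -0.44 ± 0.29 and Cdt1, which licenses origins, at 0.36 ± 0.27 per the authors' deposited table. Whether the mitosis and replication lists differ was not tested.

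Members of the noncanonical NF-κB pathway showed no common direction. Of 19 listed genes 17 were well measured, 7 higher and 10 lower, with a median of -0.15 (0.03 as a mean weighted by precision), and Map3k14 was the 1 member with an unadjusted DESeq2 p under 0.05. The receptor genes Tnfrsf1b and Tnfrsf11a (RANK) were at 0.29 ± 0.24 and 0.29 ± 0.29 per the authors' deposited table, Ltbr at 0.12 ± 0.26 and Cd40 at -0.20 ± 0.40. The complex that removes NIK lay slightly lower: Traf3 at -0.10 ± 0.29, Traf2 at -0.15 ± 0.32, Birc2 at -0.17 ± 0.29 and Birc3 at -0.27 ± 0.29 per the authors' deposited table. Chuk, the kinase that NIK activates, was at 0.32 ± 0.26 per the authors' deposited table (722 and 901). The transcription factor genes Nfkb2 and Relb, which NF-κB itself induces, were at -0.51 ± 0.34 (2628 and 1847) and -0.32 ± 0.34 (1162 and 932) per the authors' deposited table. Feedback genes of the canonical pathway were lower in 11 of 16, with a median of -0.04. In all of these the difference was under 2 standard errors, Map3k14 excepted.

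Some chemokine and other acute inflammatory genes had a large error, and the fold changes of these genes ranged from near 0 to over 1.5-fold. An error of 0.8 or more was found in 3 of 8 well measured CC chemokines, 1 of 11 inflammatory cytokines and 0 of 12 inflammasome genes. The 66 well measured genes with a standard error of 0.8 or more (0.712%) are taken as a group by a limit set after seeing the data. The lowest value in the group was 0.82 and the next lower value 0.66. Whether this gap comes from the genes or from the authors' fit was not tested. Of the 66 genes 27 share over 50% of their words, beside the 3.93% given above. The other 39 include Cxcl1, Cxcl2, Cxcl3, Ccl2, Ccl3, Ccl5, Tnf, Saa3, Acod1, Socs3, Fpr1, Fpr2, Marco and Clec4e. Genes of other kinds, such as Lox, Jag1, Abcd2, Mdn1 and Apoe, are also among the 39. In the authors' deposited table Acod1, which makes itaconate, was at 0.09 ± 1.06 with nearly equal means of 8127 and 8664. Saa3, an acute phase protein, was at 0.13 ± 1.27 (4779 and 5220.3) and Fpr1, the receptor for bacterial formyl peptides, at 0.23 ± 1.38 per the authors' deposited table. For these 3 genes the means of the 2 groups were close and the error large. Others of the group differed by over 1.5-fold, yet within 1 standard error, such as Socs3 at -0.69 ± 1.33 and Marco at 0.83 ± 0.94 per the authors' deposited table. Without the 66 genes the counts at 1.5-fold went from 67 higher and 116 lower to 54 and 100. The tables give 1 error per gene, so which libraries carry the spread was not tested. The neutrophil chemokine genes Cxcl1, Cxcl2 and Cxcl3 were at -0.73 ± 1.16, -0.71 ± 0.95 and -0.85 ± 1.4 per the authors' deposited table. Of the 7 genes of the CXC list 4 have an error this high, the fourth being Cxcl10 at -0.02 ± 0.88 per the authors' deposited table. The median of the list was -0.71 over all 7 and 0.09 over the other 3, fewer than the 5 asked of a list here. Cxcl14, a chemokine with a smaller error, was at -0.74 ± 0.38 (264 and 158; unadjusted DESeq2 p = 0.0487) per the authors' deposited table.

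**Figure D4:**
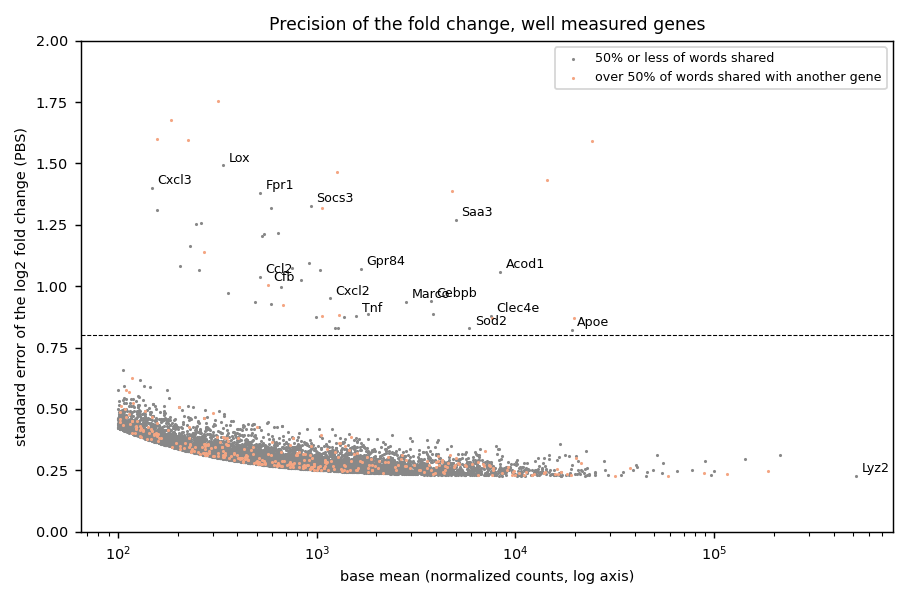
Standard error of the log2 fold change (vertical axis) against base mean (horizontal log axis) for the well measured genes, orange where over 50% of words are shared, with a dashed line at 0.8 and 11 genes of error 2 or more not drawn. Inflammatory genes such as Acod1 (1.06), Saa3 (1.27) and Cxcl3 (1.4) lie above the dashed line, clear of the band that holds the rest.

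Respiratory chain and ribosome genes lay close to 0 in resting cells. Complex I subunits were lower in 27 of 37 with a median of -0.09, and subunits of complexes II to V in 26 of 39 with a median of -0.06. Ndufb2, a complex I subunit, was at -0.60 ± 0.30 per the authors' deposited table (396 and 261; unadjusted DESeq2 p = 0.0476), while Ndufab1 lay on the other side at 0.24 ± 0.27. Of 13 genes encoded by mitochondrial DNA 9 were lower, with mt-Co2 at -0.75 ± 0.30 per the authors' deposited table (25348 and 15035), all of whose words (100%) occur in other genes. In the same list mt-Co1 was at 0.05 ± 0.23 per the authors' deposited table. TCA cycle genes were lower in 15 of 20 (median -0.07), led by Idh3b and Sdha at -0.28 ± 0.24 and -0.34 ± 0.35 per the authors' deposited table. Glycolysis genes were split 8 to 11 (median -0.02). Cytosolic ribosomal protein genes were lower in 43 of 79 (median -0.03) and those of the mitochondrial ribosome in 46 of 76 (median -0.02). Factors that build ribosomes were lower in 22 of 30 with a median of -0.08, among them Mybbp1a and Pes1 at -0.53 ± 0.30 and -0.43 ± 0.30 per the authors' deposited table. The median base mean was 702 for complex I, 1563 for complexes II to V, 1451 for the TCA cycle and 5172 for cytosolic ribosomal proteins. Of all genes in the bins of base mean that hold these levels 49.2%, 53.7% and 62.2% were higher, in rising order, and whether the lists differ from them was not tested.

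Most other functions showed no lean. Of the 58 lists with a median, 42 had one within 0.1 of 0, 3 lay above 0.2 and 2 below -0.2. More than 75% of members were higher in 7 lists and under 25% in 1, and 2 of the 1208 distinct well measured list members were called (Gdf3 and Kpna2). Within the TGF-β family and its receptors Gdf3 was the 1 gene called: 15 of 23 genes were higher, with a median of 0.13, and the receptor genes Tgfbr2 and Eng were at -0.36 ± 0.31 and 0.42 ± 0.26 per the authors' deposited table. Lysosomal genes, 19 higher and 20 lower with a median of -0.00, included Ctsb at -0.00 ± 0.30 per the authors' deposited table. Genes of alternative activation were often too low at rest, with 10 of 26 well measured, a median of -0.09 and 0 with an unadjusted DESeq2 p under 0.05. Tgm2 and Mrc1 of that list were at -0.19 ± 0.28 and 0.10 ± 0.27 per the authors' deposited table. Matrix metalloproteinases pointed both ways, with Mmp8 at -0.63 ± 0.28 and Mmp13 at 0.68 ± 0.32 per the authors' deposited table, each with an unadjusted DESeq2 p under 0.05 (0.0236 and 0.0301). Mmp8 is also on the neutrophil marker list, whose mean counts summed to 1692 in WT and 1435 in libraries labelled NIK KO. The part of such cells in its value was not tested. Odc1, the entry enzyme of polyamine synthesis, was at 0.52 ± 0.27 per the authors' deposited table (548 and 789; 52.0% of words shared).

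**Figure D5:**
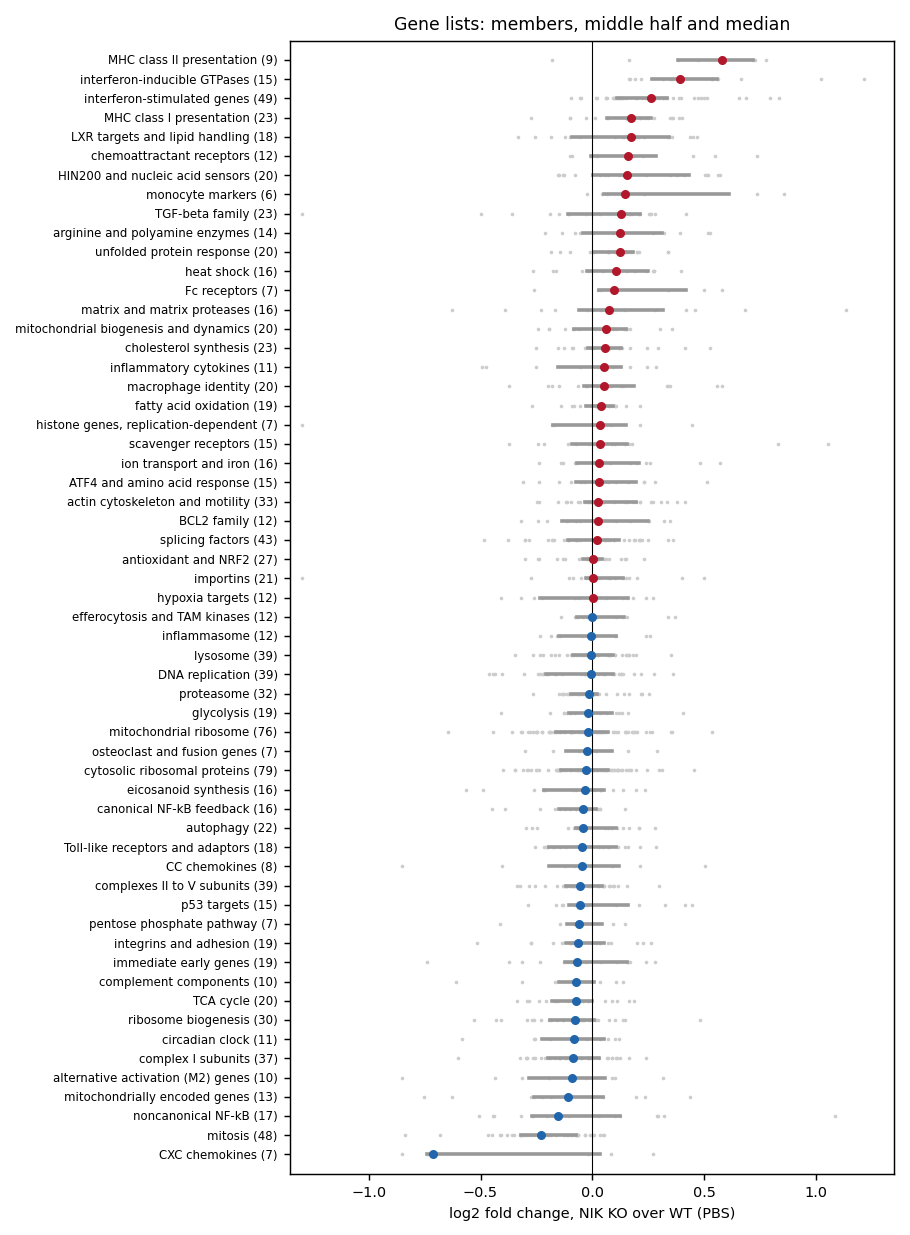
Log2 fold change (NIK KO over WT with PBS, horizontal axis) of the well measured members of 58 gene lists, number of members in brackets: small grey dots are genes, with those beyond 1.3 drawn at the edge, grey bars span the quartiles, and large dots are medians (red above 0, blue below). MHC class II (0.58) and the GTPases (0.39) lead, mitosis (-0.23) and CXC chemokines (-0.71) are last, and 42 of 58 medians lie within 0.1 of 0.

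The count of genes whose effect at rest differed from that with IL-4 depended on how the errors of the tables are related. The difference between the deposited fold changes, over their joint standard error, was called for 2 of 13384 genes in both tables (0.0149%), against 116 with an unadjusted p under 0.05 (two-sided normal test, Benjamini-Hochberg adjustment). With an assumed correlation of 0.5 between the errors, since the mice are shared, 20 were called. Both called genes share 100% of their words with another gene. Trpm2, at -0.98 ± 0.32 with PBS per the authors' deposited table, was at -0.04 ± 0.30 with IL-4, and Hook3 at -0.73 ± 0.28 and 0.38 ± 0.27 (difference p = 0.00373 by the same normal test; adjusted p = 1 and, with the correlation of 0.5, 0.0292). Gdf3 was at -1.43 ± 0.32 and -1.56 ± 0.31 and Cd5l at 1.05 ± 0.29 and 0.76 ± 0.21 per the authors' deposited tables, PBS first. The same 4 mice stand behind both treatments, so these pairs are set side by side and not counted as repeats.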

How the data were processed

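RNA of 4 resting libraries (2 mice a genotype) was compared, and the labels do not say whether library preparation was shared, so p-values measure the spread between these mice as the authors' fit estimates it. Per the submitters' processing notes, Salmon 1.4.0, DESeq2 1.32.0 and genome build GRCm39 were used; the roles of these tools, the annotation and any filters: not given in the sources used here. The authors deposited 1 table a treatment: per the file headers, a base mean (a signal, normalized counts averaged over libraries), a log2 fold change with an error on that same scale, the Wald statistic (a score) and the p-value with its adjusted value. The statistic equals fold change over error within 1.44e-07, so folds are unshrunken. There is 1 value per gene and contrast, so the depth per library is unknown and the standard error sets the precision.

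Group means were recovered from base mean and fold change, both groups being of equal size. A gene was called at an adjusted p under 0.05. Lists are described by counts and medians of well measured genes (base mean 100 or more), with no set test; members and lists were chosen with earlier results of these data known. Named genes were the called genes, noncanonical NF-κB members, the 15 highest and 15 lowest Wald statistics among well measured genes, up to 6 per list by absolute statistic, the 10 of highest base mean and the 5 neighbours on each side of Map3k14; others (Gbp7, Gvin1, Dynlt1a, Dynlt1f, Lilr4b, B2m, Ctss, Ifi30, the genes of high error, the marker genes and a few that mark the far end of a list) were chosen after their values were seen. Shared sequence is the percent of 31-base words of a gene's longest transcript (GENCODE M21, GRCm38) found in another gene. Promoters are those of RefSeq (GRCm38.p6). Steps were tested on simulated data. Other settings tried were the base mean limit, the threshold, centring, precision weights, and leaving out copies or genes of high error. Tables were made with pandas 2.3.3 (Python 3.11.15, scipy 1.17.1) and plots with matplotlib 3.10.9.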

Additional observations from a re-analysis of the deposited data

Results flagged for a closer look

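Tests of the difference between the NIK KO effect at rest and with IL-4 singled out 2 genes, both copies of others with 100% of their 31-base words shared. Pgam1-ps2, a pseudogene of the glycolytic enzyme Pgam1, had a mean of 530.2 in WT and was listed near 0 in libraries labelled NIK KO with PBS, and stood at 0.180 and 144 with IL-4. Its log2 fold changes in the authors' deposited tables were -24.73 ± 4.78 and 9.64 ± 4.79, and the difference had an adjusted p of 0.00254 (two-sided normal test, Benjamini-Hochberg over 13384 genes). Gm10146 stood at 51.7 and 77.7 with PBS and at 68.4 and 0.188 with IL-4, and the difference of its fold changes (0.59 ± 0.62 and -8.51 ± 1.60 in the authors' deposited tables) had an adjusted p of 0.00149.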

How the results depend on the processing

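The 5 calls numbered 6 with adjustment over genes of base mean 10 or 100 and more, or at a threshold of 0.1, the addition being Gm42715 (log2 fold change 1.61, adjusted p = 0.0364 over well measured genes). Without genes that share over 50% of their words, an alternative chosen after seeing the data, DESeq2 p-values gave 0 calls in all, 0 higher and 0 lower, among 12524 genes (128 with an unadjusted p under 0.05, lowest adjusted p = 0.103). The counts at 1.5-fold, 67 higher and 116 lower, were 145 and 266 at base mean 30, 33 and 29 at 300, and 13 and 13 at 2-fold, where the limit itself sets the count; at base mean 300 the lower side no longer outnumbered the higher. Without genes of standard error 0.8 or more, also chosen after seeing the data, they were 54 and 100. The 2 differences between treatments were 0 among genes of base mean 100 or more in both tables, a limit that left both genes out. Gm10146 had a base mean of 64.7 with PBS, and Pgam1-ps2 had 71.9 with IL-4. With an error correlation of 0.5, which makes the joint error smaller, there were 20. Of 348 recomputed list medians 0 moved by more than the list's median standard error and 25 changed sign, among them CXC chemokines (0.03 over 4 genes at base mean 300), CC chemokines (from -0.05 to 0.09 without genes of high error) and noncanonical NF-κB. That limit is the error of a single gene and is wide for a median, so the count of 0 is no measure of stability. The CXC median went from -0.71 to 0.09 without genes of high error and still stayed within its limit of 0.875. MHC class II ranged from 0.40 to 0.58, the GTPases from 0.37 to 0.46, interferon-stimulated genes from 0.25 to 0.26 and mitosis from -0.24 to -0.20. No paired analysis was possible because the tables hold 1 value per gene and contrast and each mouse has 1 genotype; for the first reason no replicate could be left out.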
